A study of Rattus norvegicus with 6 samples.

Results

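The genes described here are 56 genes of cell division, named in a list that runs from the cyclins of G1 through DNA replication to mitosis and cytokinesis. A member was included when a probe of the array carried a RefSeq transcript of that gene, and its level was taken from the probe with the highest mean. Of the 56 genes, 50 had such a probe and 42 of these were measured, among 27642 genes tested in all. A gene counted as measured when 1 whole group, or both, had its probe well above background on all 3 arrays. Mki67, Top2a, Mcm5, Uhrf1, Melk and Bub1b had no matched probe and are not analysed here. Liver RNA came from 6 male rats of the outbred Sprague-Dawley stock (Crl:CD(SD)), bought at 5 weeks of age. Of these, 3 received corn oil, the vehicle, and 3 received 400 mg per kg per day of TCEP. TCEP is tris(2-chloroethyl) phosphate, an organophosphate used as a flame retardant. The labels give 9 weeks of dosing in one place and 28 days in another, and each animal had 1 array. The comparison asks whether genes of G1, S phase and mitosis differed between TCEP and vehicle livers.

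Cells divide by passing through G1, in which D and E cyclins with their kinases release E2F transcription factors from the retinoblastoma proteins. They then pass through S phase, in which the MCM helicase, loaded before S phase, unwinds DNA for copying. G2 and mitosis follow, driven by the kinase Cdk1 with A and B cyclins. Most hepatocytes of an adult liver rest outside the cycle, and they can re-enter it after loss of tissue or under certain nuclear receptor ligands that act as mitogens. The transcripts of S phase are known as E2F targets. Those of G2 and mitosis are known to be repressed in resting cells through a short promoter element, the cell cycle genes homology region (CHR), often near CCAAT boxes, the binding sites of the factor NF-Y.

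The promoters show how the S phase and mitotic members of the list divide. The sequences below are the 150 bases before the transcription start of 7 members, from RefSeq on build GRCr8, written 5′ to 3′ on the gene's own strand. Matches on either strand are in capitals. The letters searched were TTTGAA and also TTTAAA for the CHR, CCAAT for the NF-Y box, and for E2F the runs TTTCCCGC, then TTTGGCGC, then TTTCGCGC. Both B cyclin genes, their kinase Cdk1 and the mitotic activator Cdc20 are shown first, then 3 S phase genes. All 7 hold a CHR match if mitotic or an E2F match if of S phase, which not every member does. Among others, Pcna and Rrm1 of S phase had no E2F match, and the mitotic Cdca3 and Stmn1 had no CHR match.
Ccnb2 (chr8:79981659-79981808, minus strand): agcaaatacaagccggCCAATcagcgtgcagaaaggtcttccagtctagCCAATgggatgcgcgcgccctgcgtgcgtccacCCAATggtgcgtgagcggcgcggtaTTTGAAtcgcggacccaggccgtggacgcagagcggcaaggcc
Ccnb1 (chr2:33655226-33655375, minus strand): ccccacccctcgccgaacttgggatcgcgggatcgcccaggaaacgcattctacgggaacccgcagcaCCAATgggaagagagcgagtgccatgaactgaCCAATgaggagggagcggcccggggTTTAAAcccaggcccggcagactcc
Cdk1 (chr20:19265143-19265292, plus strand): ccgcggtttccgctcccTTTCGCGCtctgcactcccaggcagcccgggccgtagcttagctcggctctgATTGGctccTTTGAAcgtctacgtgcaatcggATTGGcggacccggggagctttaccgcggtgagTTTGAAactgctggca
Cdc20 (chr5:137255800-137255949, minus strand): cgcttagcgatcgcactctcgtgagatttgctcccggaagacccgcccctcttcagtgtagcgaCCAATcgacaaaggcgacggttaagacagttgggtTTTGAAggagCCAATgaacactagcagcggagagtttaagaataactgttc
Mcm6 (chr13:42404353-42404502, minus strand): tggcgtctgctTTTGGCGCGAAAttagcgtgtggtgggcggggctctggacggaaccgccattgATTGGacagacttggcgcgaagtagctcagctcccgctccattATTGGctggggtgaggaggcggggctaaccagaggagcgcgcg
Mcm7 (chr12:22163179-22163328, minus strand): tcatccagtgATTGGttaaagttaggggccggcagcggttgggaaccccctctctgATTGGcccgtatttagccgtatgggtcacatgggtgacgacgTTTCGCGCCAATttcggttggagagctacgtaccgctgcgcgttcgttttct
Tyms (chr9:120776084-120776233, minus strand): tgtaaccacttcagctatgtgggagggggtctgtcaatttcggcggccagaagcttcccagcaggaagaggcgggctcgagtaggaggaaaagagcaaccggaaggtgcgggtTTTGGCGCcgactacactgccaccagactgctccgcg

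Across the list, a window of 250 bases before to 50 bases after the start was present for 43 of the 56 genes. Only 1 of the 4 G1 genes, Ccne1, had a window, with a CHR match and no E2F match, so G1 was not compared. A CHR match lay in 27 of 30 mitotic genes (90%) and in 1 of 12 S phase genes (8.33%), against 27.9% of all 27457 genes in the table. An E2F match lay in 8 of 12 S phase genes (66.7%) and in 2 of 30 mitotic genes (6.67%), against 1.82% of all genes. CCAAT boxes were in 8 of 12 S phase and 22 of 30 mitotic genes, against 37.7% of all genes. A CHR and a CCAAT match stood together in 20 of the 30 mitotic genes and in 11.1% of all genes. CHR matches were thus mostly in mitotic members and E2F matches mostly in S phase members, while CCAAT matches were common to both. The CHR letters are short, and TTTAAA also occurs in other AT-rich promoters. In the mitotic genes the CHR match nearest the start lay within 100 bases of it in 24 of 27. In Ccnb2 it began 43 bases and in Ccnb1 25 bases before the start. The distance of the nearest match was not computed for all genes. The window itself ran only from 250 bases before to 50 bases after the start. Sequences can overlap: in Mcm7 the E2F and CCAAT letters share bases, and in Mcm6 E2F letters on opposite strands do.

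**Figure D1:**
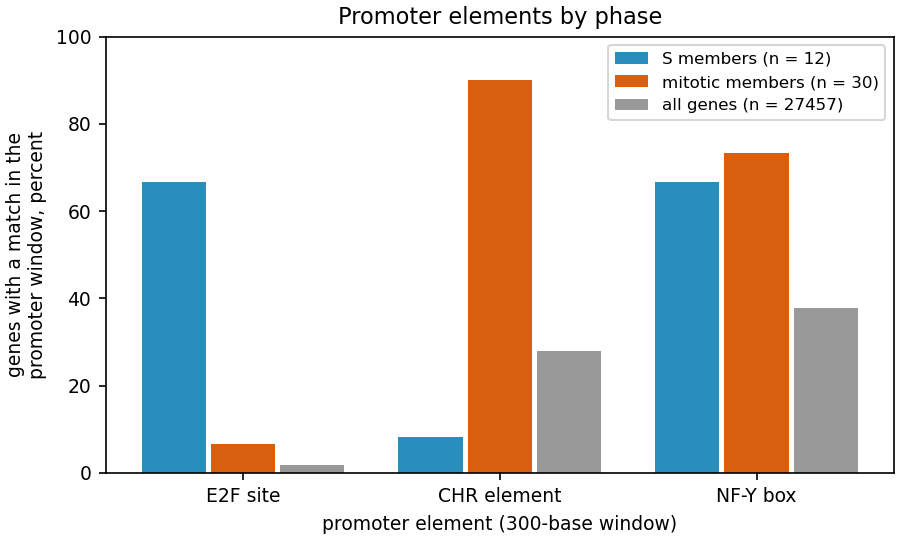
Share of genes (percent, vertical axis) with at least 1 match to E2F, CHR or NF-Y box (CCAAT) letters in the 300-base promoter window, for 12 S phase members (blue), 30 mitotic members (orange) and all 27457 genes of the table (grey). CHR matches reach 90% in mitotic members against 8.33% in S phase members, and E2F matches 66.7% in S phase members against 6.67% in mitotic ones.

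Levels are given as log2 of the processed signal minus the array's own 75th percentile, so that 0 is the signal of the probe at that percentile. Of 61657 non-control probes, 57.2% to 64.4% on each array passed the scanner software's background test. The TCEP arrays shared slide 3, corn oil replicates 1 and 3 shared slide 1, and corn oil replicate 2 was alone on slide 2 and was scanned 23 days after the others. As no slide held both groups, slide and treatment cannot be told apart. A random block for slide cannot separate them either, and with it the members' median difference was 0.17. The hepatocyte markers Alb, Apoa1, Ttr, Cps1, Tf, Serpina1 and Hnf4a were well above background on all 6 arrays. Precision is limited by having 3 arrays a group, and fewer cells of a type and less RNA per cell cannot be told apart in bulk tissue.

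None of the 42 measured members passed an adjusted p of 0.05 (limma, Benjamini-Hochberg over all genes), in either direction, as 0% of all genes did. Members with a higher mean in the TCEP livers numbered 33, and 9 had a lower mean, while 51.1% of all genes had a higher mean. The median log2 difference over the measured members was 0.16, against 0.01 over all genes. At an unadjusted p under 0.05, 1 member, Ccnb2, was higher and 0 were lower, beside 5.08% and 4.16% of all genes (9.23% in either direction). No TCEP animal overlapped the corn oil animals, with TCEP above, in 2 members, Ccnb2 and Mad2l1, and with TCEP below in 0, beside 10.4% and 7% of all genes (17.4% in either direction). Neither share was above that of all genes. No member had a difference of 2-fold or more. The 95% interval of the difference lay within 2-fold in both directions for 25 of the 42 members and within 1.5-fold for 12, so for the other 17 a 2-fold difference is within the error.

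Measured members are not a neutral set, since 4 of them, Ccne2, Ccnb2, Racgap1 and Prc1, were well above background on all arrays of 1 group only. For Ccne2, Ccnb2 and Racgap1 that group was TCEP, in which their means were higher. For Prc1 it was corn oil, though its mean was higher in TCEP. The 38 members that were well above background on all 6 arrays had a median of 0.14, and all 50 members with a probe had 0.15. Leaving out corn oil replicate 3 gave the members a median of 0.06, and leaving out corn oil replicate 2 gave 0.27. The values were 0.25 without TCEP replicate 2 and 0.10 without TCEP replicate 3.

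**Figure D2:**
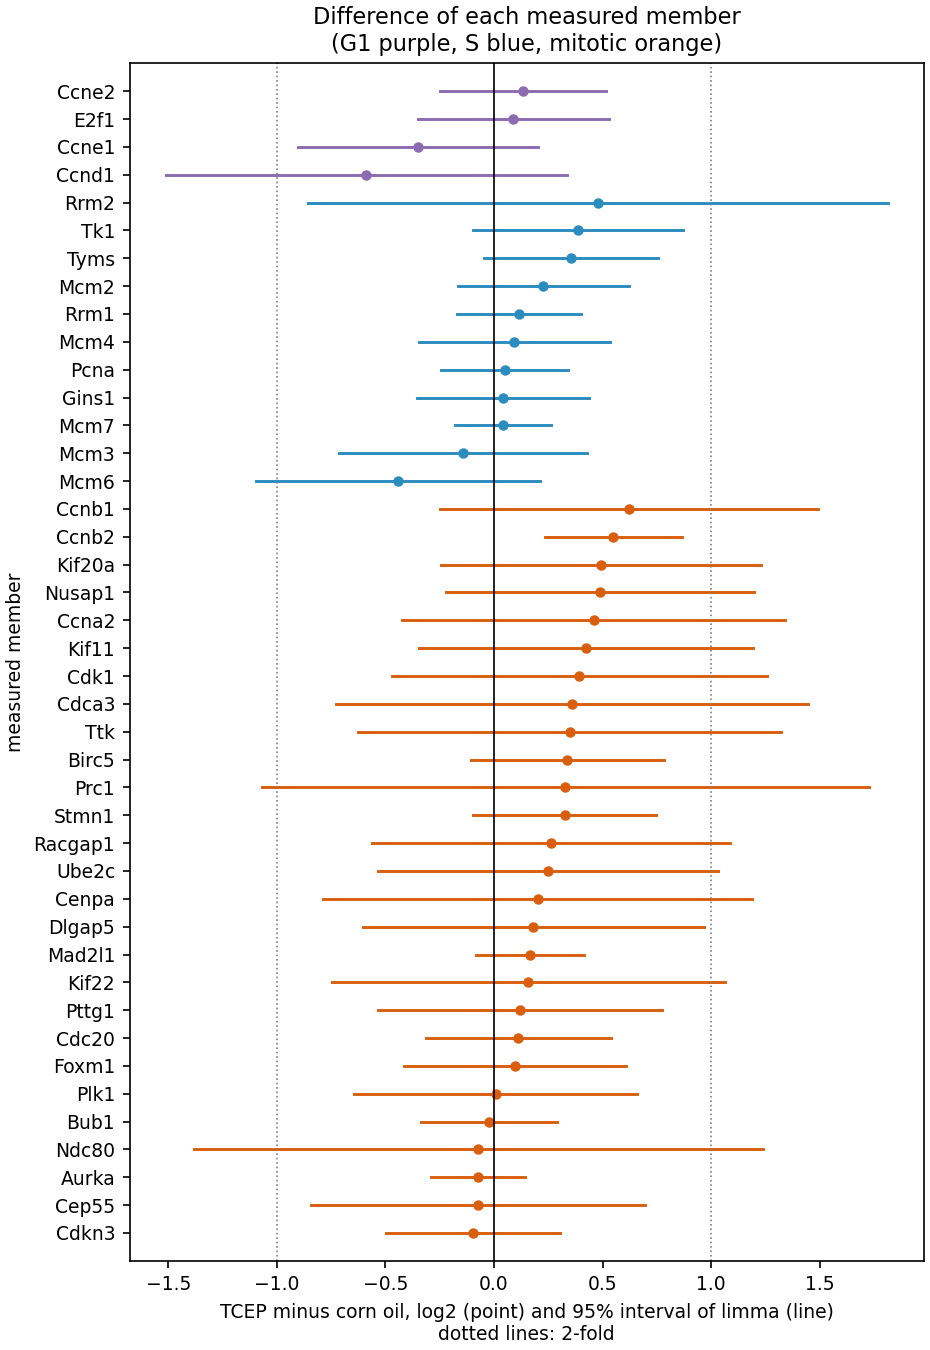
Log2 difference, TCEP minus corn oil (horizontal axis), of each of the 42 measured members, as a point with its 95% interval from limma. Colours mark G1 (purple), S phase (blue) and mitotic (orange) members, and dotted lines mark 2-fold. Only the interval of Ccnb2 (0.23 to 0.86) leaves out 0, before adjustment.

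The G1 members had no common direction: 2 of the 4 had a lower and 2 a higher mean with TCEP. Their median was -0.13. Leaving out corn oil replicate 1 gave -0.29, corn oil replicate 3 gave -0.03, TCEP replicate 1 gave -0.24 and TCEP replicate 2 gave -0.02. Cyclin D1, Ccnd1, which activates Cdk4 and Cdk6 in response to mitogens, had values of 2.19, 2.99 and 3.04 in corn oil replicates 1 to 3. Its TCEP values were 2.80, 1.504 and 2.14. Thus TCEP replicate 1 lay among the corn oil arrays, TCEP replicate 2 was lowest of all, and the groups overlapped. The difference was -0.59 ± 0.38 (SE; limma, adjusted p = 0.661), and its 95% interval ran from -1.51 to 0.34. All 3 kept probes of the gene gave lower TCEP means, from -0.44 to -0.59.

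Cyclin E1, Ccne1, which with Cdk2 starts S phase, had values of -2.05, -1.40 and -1.49 in corn oil and -1.66, -2.13 and -2.20 in TCEP. As for Ccnd1, TCEP replicate 1 lay within the corn oil range, and the difference was -0.35 ± 0.23 (SE). Its homologue Ccne2 was dim, at -4.42, -4.63 and -4.18 in corn oil and -4.21, -4.49 and -4.13 in TCEP. It was well above background on 2 of 3 corn oil arrays, and the difference was 0.13 ± 0.16. E2f1, an activator of S phase genes, had values of -2.33, -2.08 and -1.85 in corn oil and -1.89, -2.29 and -1.81 in TCEP. Its values overlapped almost fully, with a difference of 0.09 ± 0.18, and its probes disagreed in direction (-0.12 to 0.24).

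Among S phase members, those of origin licensing and of the replicative helicase had differences around 0, while all 5 measured members of the replication fork and nucleotide supply had higher TCEP means. The median was 0.04 over 6 licensing and helicase members, with 4 higher and 2 lower, and 0.36 over the 5 others. The first was -0.06, with 1 of 6 higher, without corn oil replicate 1, 0.16 without corn oil replicate 2 and -0.01 with the mean over probes. The second was 0.17 with the mean over probes and 0.14 without corn oil replicate 3, where 4 of the 5 were higher, and 0.22 without corn oil replicate 2.

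Mcm7, a subunit of the helicase, had values of 1.93, 2.09 and 2.06 in corn oil and 2.07, 2.10 and 2.04 in TCEP. The spread over all 6 animals was small and the groups overlapped. The difference was 0.04 ± 0.09 (SE), with an interval from -0.18 to 0.26, the narrowest of the measured helicase subunits. Mcm4, of the same ring, had values of -0.44, 0.06 and -0.19 in corn oil and 0.06, 0.02 and -0.38 in TCEP. Its difference was 0.09 ± 0.18, and its 2 probes gave opposite directions. Mcm2 and Mcm3 had differences of 0.23 ± 0.16 and -0.14 ± 0.24, and Gins1, part of the helicase's activator complex, had 0.04 ± 0.16. Mcm6 had the lowest difference of the S phase members, -0.44 ± 0.27, from a dim probe with values of -4.62, -3.65 and -4.02 in corn oil and -4.84, -4.31 and -4.47 in TCEP. Only TCEP replicate 1 lay below all corn oil arrays there.

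Pcna, the sliding clamp of the DNA polymerases, had values of 1.19, 1.25 and 1.496 in corn oil and 1.48, 1.27 and 1.33 in TCEP. The TCEP values fell inside the corn oil range, and the difference was 0.05 ± 0.12 (SE; 95% interval -0.24 to 0.34). Thymidine kinase, Tk1, which salvages thymidine for DNA synthesis, had values of 0.19, -0.46 and -0.11 in corn oil and 0.22, 0.05 and 0.51 in TCEP. Corn oil replicate 1 lay between TCEP replicates 2 and 1, and the difference was 0.39 ± 0.20 (limma, adjusted p = 0.597). It was 0.22 within the first scan day, without corn oil replicate 2. Tyms, which makes thymidylate from deoxyuridylate, had a difference of 0.36 ± 0.17 (limma, adjusted p = 0.569), and 0.47 within the first scan day.

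The subunits of ribonucleotide reductase, which supplies deoxyribonucleotides, had unlike spreads. The catalytic subunit gene Rrm1 had a difference of 0.11 ± 0.12. The S phase-regulated subunit gene Rrm2 had values of -0.75, 0.70 and -1.505 in corn oil and 0.30, -0.40 and -0.01 in TCEP. Corn oil replicates 2 and 3 were the highest and the lowest of the 6 animals, with all TCEP values between them. The Rrm2 difference was 0.48 ± 0.55, and 1.09 within the first scan day. Its other kept probe gave -0.14.

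Mitotic members had the highest median of the 3 phases, 0.25 over 27 measured genes, with a higher TCEP mean in 22 and a lower mean in 5. It was 0.19 over the 24 that were well above background on all 6 arrays and 0.20 over all 33 with a probe. With normexp background correction and an offset of 50, which shrinks differences between dim signals, it was 0.08. Leaving out corn oil replicate 3 gave 0.06, with 16 of 27 higher, and leaving out corn oil replicate 2 gave 0.47, with 25 of 27 higher. Without TCEP replicate 2 it was 0.39 and without TCEP replicate 3 it was 0.15.

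Of the regulators of G2 and mitosis, 8 of 10 measured members had higher TCEP means, and the median difference was 0.35. That median was 0.12 without corn oil replicate 3, 0.23 without corn oil replicate 1, 0.19 without TCEP replicate 3, 0.54 without TCEP replicate 2 and 0.13 with normexp. Cyclin B2, Ccnb2, a partner of Cdk1, had values of -4.21, -4.40 and -4.35 in corn oil and -3.78, -3.96 and -3.56 in TCEP. All 3 TCEP values were above all 3 corn oil values. The means were -4.32 ± 0.10 and -3.77 ± 0.20 (SD, n = 3 each; limma), a 1.46-fold higher TCEP mean with a log2 difference of 0.55 ± 0.13 (SE). Its p was 0.00516 before and 0.447 after adjustment over all genes (limma). The probe was dim and well above background on 2 of 3 corn oil arrays, so Ccnb2 counted as measured through the TCEP arrays alone. The difference was 0.11 with normexp background correction (limma, unadjusted p = 0.235). With each array left out in turn it ran from 0.45 to 0.64.

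Cyclin B1, Ccnb1, had the highest difference of all members, 0.62 ± 0.36 (SE; limma, adjusted p = 0.629). Its values were -4.43, -3.49 and -4.49 in corn oil and -3.22, -4.10 and -3.22 in TCEP. Corn oil replicate 2 was nearer to TCEP replicates 1 and 3 than to the other corn oil animals, and TCEP replicate 2 was nearer to corn oil replicates 1 and 3. Cdk1, the kinase that both cyclins activate, showed the same split, with values of -1.35, -0.62 and -1.68 in corn oil and -0.56, -1.42 and -0.49 in TCEP. Its difference was 0.39 ± 0.36, with an interval from -0.47 to 1.26. Cyclin A2, Ccna2, which acts in S phase and G2, had a difference of 0.46 ± 0.36, and its 3 kept probes gave 0.03 to 0.46. The survivin gene Birc5, of the chromosomal passenger complex, had 0.34 ± 0.18.

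The kinases Aurka and Plk1 had differences of either sign that were smaller than their errors. Aurka, the kinase of the spindle poles, had values of -0.59, -0.58 and -0.67 in corn oil and -0.68, -0.76 and -0.62 in TCEP. These lay close together in all 6 animals, with a difference of -0.07 ± 0.09 (SE), though its other kept probe gave 0.20. Plk1, a kinase of mitotic entry and exit, had 0.01 ± 0.27, and Foxm1, a transcription factor of G2 genes, 0.10 ± 0.21. Cdca3 had 0.36 ± 0.45, and the phosphatase gene Cdkn3 had the lowest difference of the mitotic members, -0.10 ± 0.17.

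Genes of the spindle checkpoint, the anaphase-promoting complex and the kinetochore had a median difference of 0.14 over 8 measured members, 6 with a higher TCEP mean. Leaving out corn oil replicate 3 gave 0.01, with 4 of 8 higher, leaving out corn oil replicate 2 gave 0.35, with 8 of 8 higher, and normexp gave 0.06. Mad2l1, a checkpoint protein that holds back Cdc20, had values of -2.48, -2.21 and -2.29 in corn oil and -2.15, -2.19 and -2.15 in TCEP. The TCEP animals were nearly equal and lay just above the corn oil animals, with a difference of 0.17 ± 0.10 (SE; limma, adjusted p = 0.651). Cdc20, the activator of the anaphase-promoting complex, had values of -1.04, -0.81 and -1.40 in corn oil and -0.87, -1.16 and -0.89 in TCEP. Here corn oil replicate 2 was the highest of all 6, and the difference was 0.11 ± 0.18. Pttg1, securin, which guards the cohesin protease until anaphase, had values of -0.56, 0.06 and -0.19 in corn oil and -0.32, 0.42 and -0.42 in TCEP, so that TCEP replicate 2 was the highest. The others ran from -0.07 ± 0.54 for Ndc80, of the microtubule-binding kinetochore complex, to 0.35 ± 0.40 for the checkpoint kinase gene Ttk.

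Of 9 measured genes of chromosomes, spindle and cytokinesis, 8 had a higher TCEP mean, with a median of 0.33. It was 0.04 without corn oil replicate 3, with 5 of 9 higher, 0.57 without corn oil replicate 2, with 9 of 9 higher, 0.21 without corn oil replicate 1 and 0.12 with normexp. Stathmin, Stmn1, which destabilises microtubules and is also made in cells that do not divide, had values of 0.92, 0.90 and 1.35 in corn oil and 1.57, 1.42 and 1.16 in TCEP. TCEP replicates 1 and 2 lay above every corn oil value and TCEP replicate 3 below corn oil replicate 3. The difference was 0.33 ± 0.17 (SE; limma, adjusted p = 0.604), and its 3 probes gave 0.33 to 0.36. The kinesins Kif20a, of the central spindle, and Kif11, of spindle pole separation, had 0.49 ± 0.30 and 0.42 ± 0.32. Nusap1, a microtubule-binding protein, had 0.49 ± 0.29, and Cep55, of abscission, had the lowest of the group, -0.07 ± 0.32. Prc1, which bundles microtubules at the midzone, had the widest interval, from -1.07 to 1.73.

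**Figure D3:**
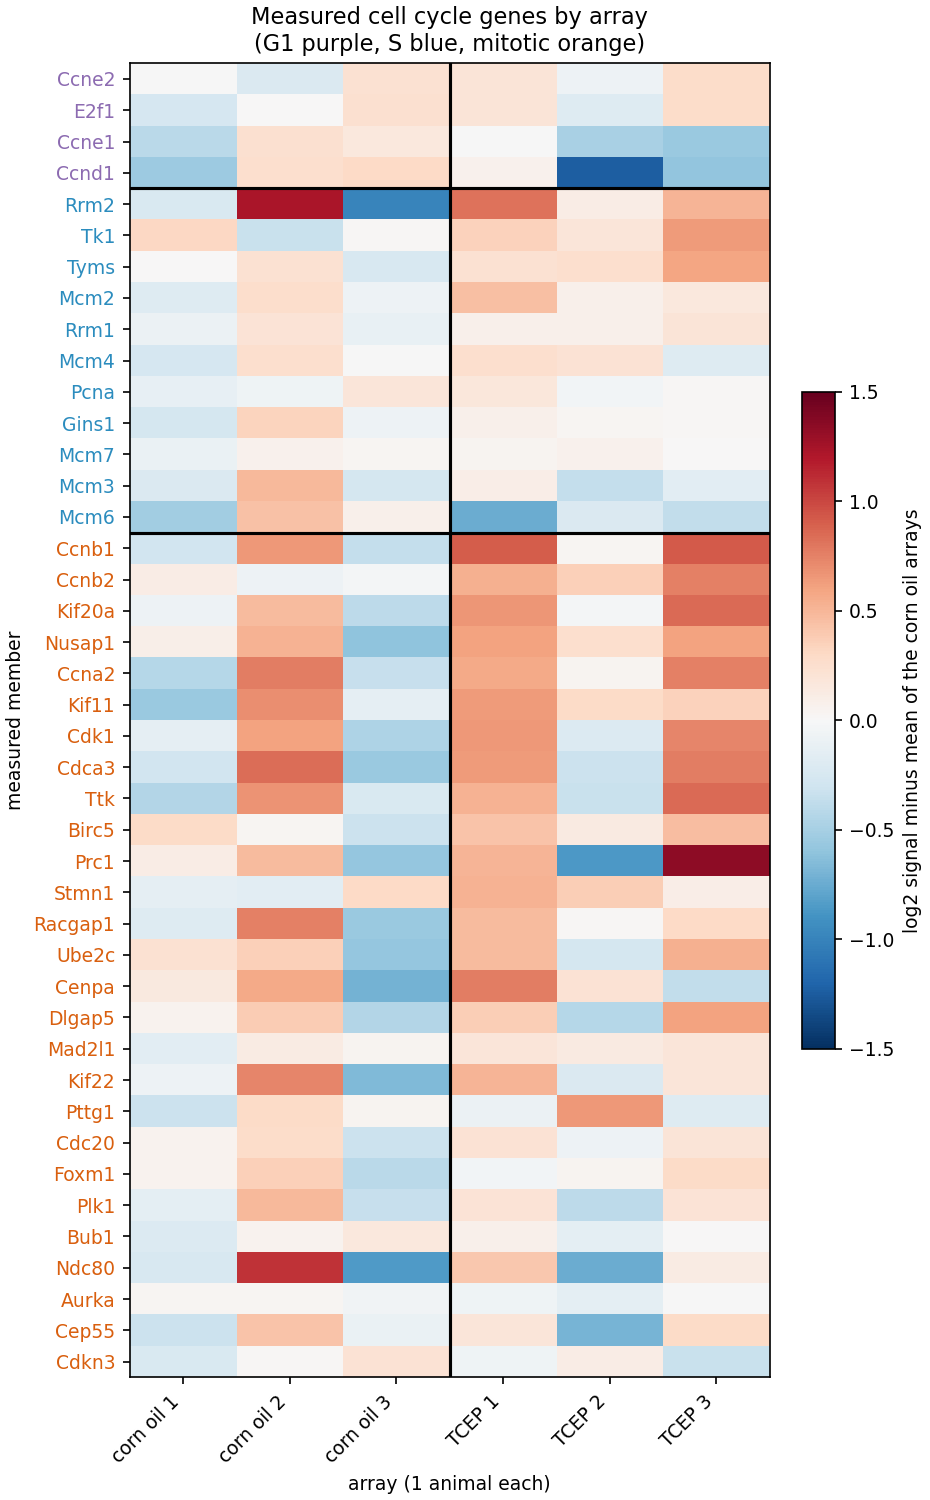
Each of the 42 measured members (rows, G1 purple, S blue, mitotic orange) on each of the 6 arrays (columns), as log2 signal minus the mean of the corn oil arrays, from blue (lower) to red (higher). Most mitotic rows are red in corn oil 2, TCEP 1 and TCEP 3 and pale or blue in corn oil 1, corn oil 3 and TCEP 2.

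The mitotic members varied together between animals of the same group, and this spread was larger than the difference between the groups. On average over the 27 genes, relative to the corn oil mean, corn oil replicates 1 to 3 were at -0.12, 0.42 and -0.31. The TCEP replicates were at 0.40, -0.08 and 0.39. Corn oil replicate 2 thus stood beside TCEP replicates 1 and 3, and TCEP replicate 2 stood just above corn oil replicate 1. These comparisons of single arrays were chosen after the values were seen. Corn oil replicate 2 was the highest corn oil array in 22 of 27 mitotic members, against 30.6% of all genes. TCEP replicate 2 was the lowest TCEP array in 22 of 27, against 28.6% of all genes. Both held in 19 of the 27 genes (70.4%) and in 10.8% of all genes. Corn oil replicate 2 is the array with its own slide and later scan, and the part of either in its values was not tested. TCEP replicate 2 shared slide and scan day with the other TCEP arrays, and the source of its lower values was not tested.

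The S phase members shared this pattern less fully and with a smaller spread. Their average was -0.15, 0.28 and -0.13 in corn oil replicates 1 to 3 and 0.16, 0.04 and 0.13 in TCEP. Corn oil replicate 2 was again the highest corn oil array, in 9 of 11 members, but TCEP replicate 2 was the lowest TCEP array in 5 of 11. Both held in 3 of 11. The G1 members averaged -0.30, 0.07 and 0.23 in corn oil and 0.11, -0.50 and -0.15 in TCEP, and both held in 0 of 4. The median SD within corn oil was 0.44 log2 units for mitotic, 0.25 for S phase and 0.30 for G1 members, against 0.19 for all genes. Within TCEP these were 0.36, 0.20, 0.27 and 0.14. Whether the phases differ in spread was not tested, and the comparison with all genes was not matched for signal level.

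**Figure D4:**
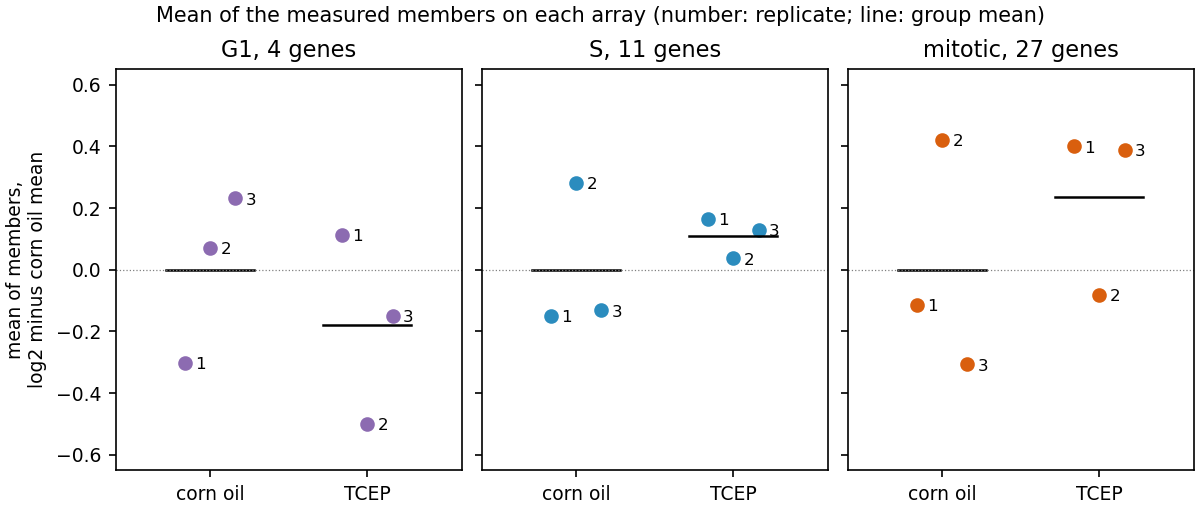
Mean of the measured G1 (4 genes), S phase (11) and mitotic (27) members on each array, as log2 signal minus the corn oil mean (vertical axis). Points are animals, labelled by replicate number, and lines are group means. In the mitotic panel corn oil replicate 2 (0.42) stands with TCEP replicates 1 and 3 (0.40 and 0.39), and the groups overlap in every panel.

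Set side by side, the median differences were -0.13 for G1, 0.09 for S phase and 0.25 for mitotic members. In all 16 other ways of processing or leaving out an array the G1 median was the lowest and below 0, and the mitotic median was above 0. The mitotic median was above the S phase median except with normexp background correction (0.08 against 0.12) and without corn oil replicate 3 (0.0577 against 0.059). Without corn oil replicate 1 the S phase median was -0.01. Within the first scan day, with 2 corn oil and 3 TCEP arrays, the medians were -0.10, 0.22 and 0.47. There 9 members were higher at an unadjusted p under 0.05 and 0 were lower, 21.4% of the 42 beside 4.32% of all genes. These were Kif11, Ccna2, Rrm2, Racgap1, Ccnb2, Ccnb1, Nusap1, Kif20a and Tyms, and the smallest adjusted p of a member was 0.534 (limma). Of these, Racgap1 and Ccnb2 counted as measured through the TCEP arrays alone. Leaving out corn oil replicate 2 removes the highest corn oil value of 32 members, so the count rests on it.

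**Figure D5:**
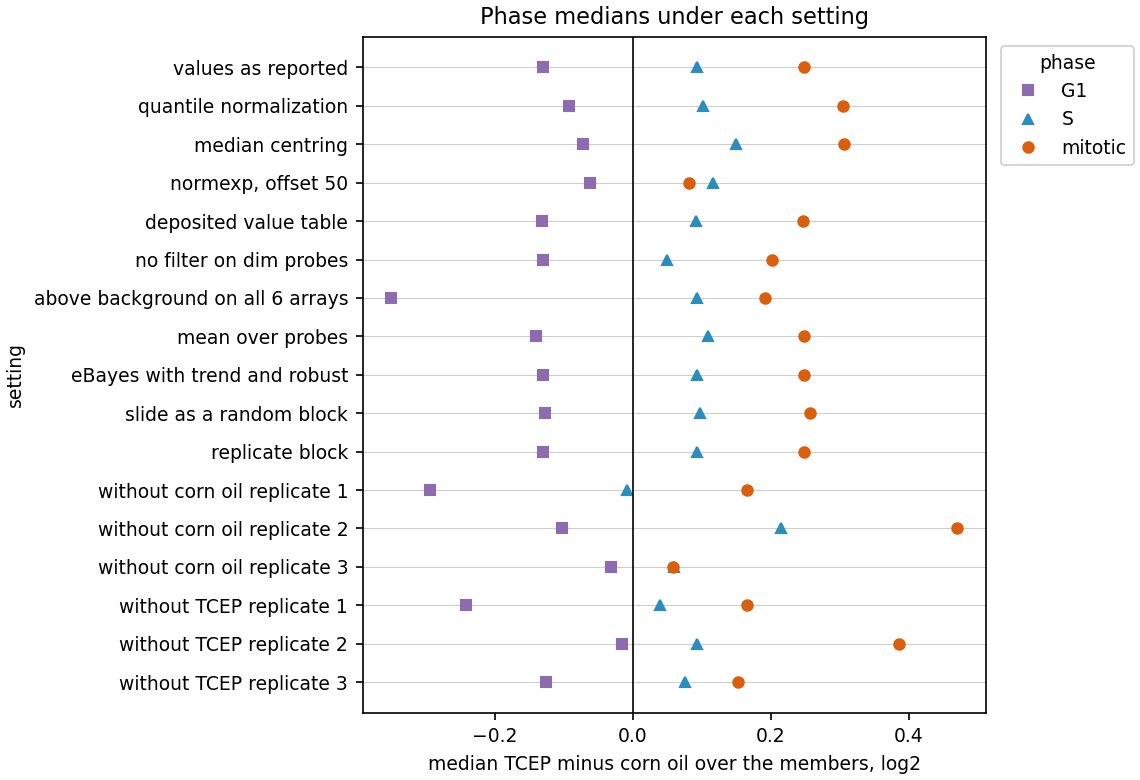
Median log2 difference (horizontal axis) of the G1 (purple squares), S phase (blue triangles) and mitotic members (orange circles) for the values as reported and under 16 other settings (vertical axis). The mitotic median runs from 0.06 to 0.47, its values on leaving out corn oil replicate 3 and corn oil replicate 2, and the G1 median stays below 0.

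For 8 members with a probe the signal was too low to be measured. Aurkb, of the chromosomal passenger complex, Cenpf and Hmmr were not well above background on any array, and Pbk was on 2 TCEP arrays only. The licensing factors Cdc6 and Cdt1 were well above background on 1 and 2 arrays of each group, Nuf2 on 2 of each, and Tpx2 on 1 corn oil and 2 TCEP arrays. No difference is given for them.

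Beyond the 56 genes, 7 lists of other cell cycle genes were read from the same fit. Of 106 measured genes 0 passed the adjusted threshold in either direction. At an unadjusted p under 0.05 there were 5 higher and 4 lower, 9 of 106, beside 5.08% higher and 4.16% lower among all genes, so these counts were no larger than the share of all genes. All 7 measured CDK inhibitors had lower TCEP means, with a median of -0.09. The count was 6 with quantile normalization, with the mean over probes, and without corn oil replicate 2 or 3. It was 5 with median centring and 5 without corn oil replicate 1 or TCEP replicate 3. Kept probes disagreed in direction for Cdkn1c (-0.13 to 0.15) and Cdkn2a (-0.29 to 0.15). The lowest difference of the 7 was that of Cdkn2b, p15, an inhibitor of Cdk4 and Cdk6. Its values were -2.54, -2.57 and -2.65 in corn oil and -2.94, -3.43 and -3.12 in TCEP, all lower with TCEP. The difference was -0.58 ± 0.14 (SE; limma, unadjusted p = 0.00624, adjusted p = 0.462), and -0.26 with normexp background correction. Among other G1 genes, 5 of 11 had a higher TCEP mean (7 with median centring), and Ccnd2, cyclin D2, had -0.44 ± 0.17. Of 9 genes of the retinoblastoma family, other E2F factors and their repressor complex 3 had a higher TCEP mean (5 without corn oil replicate 3), with the bright Rbl2, p130, at -0.06 ± 0.20.

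Other replication genes had higher TCEP means in 23 of 29, with a median of 0.14, and 3 were higher and 1 lower at an unadjusted p under 0.05 (all genes, 5.08% and 4.16%). Gins4, of the same helicase activator complex as Gins1, had the smallest p of all these lists. Its values were -1.63, -1.51 and -1.62 in corn oil and -0.99, -1.10 and -1.09 in TCEP, so the groups were well apart. The difference was 0.53 ± 0.09 (SE; limma, unadjusted p = 0.000959, adjusted p = 0.331), and 0.41 to 0.59 in the other settings. The DNA polymerase delta subunit Pold2 had 0.40 ± 0.14, and the primase subunit Prim1 had -0.54 ± 0.21. Without corn oil replicate 3, 18 of the 29 were higher with a median of 0.07, and without corn oil replicate 2 the median was 0.23.

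Other mitotic genes had a median of 0.02, with 12 of 22 higher. Wee1, the kinase that holds Cdk1 inactive, had 0.45 ± 0.14 (SE; limma, adjusted p = 0.504), with all TCEP values above the corn oil values. Its 3 kept probes gave 0.12 to 0.45. The scaffold gene Iqgap3 had -0.41 ± 0.17. Without corn oil replicate 3 the median of this list was -0.07, with 6 of 22 higher, and it was also below 0 without TCEP replicate 1 (-0.01) or TCEP replicate 3 (-0.04). Of 17 ubiquitin ligase subunits 15 had higher means with a median of 0.07 (10 and 0.03 without corn oil replicate 3, 16 and 0.13 with median centring), and the bright Skp1 had 0.11 ± 0.11. Among 11 hepatocyte mitogens and receptors 7 had a higher mean (5 without TCEP replicate 1 or with the mean over probes), and Erbb3, a partner of the EGF receptor, had 0.28 ± 0.10.

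Markers of cell types whose division could add to bulk levels were summed per array, as signal over the 75th percentile. Hepatocyte markers (7 of 7 matched) summed to 4790 to 4920 in corn oil and 4300 to 4910 in TCEP. Macrophage markers (9 of 9) summed to 87 to 216 and 129 to 152, T and NK cell markers (9 of 9) to 2.1 to 2.67 and 2.08 to 3.1. B and plasma cell markers (4 of 7) summed to 0.356 to 0.845 and 0.639 to 1.43, and cholangiocyte markers (5 of 6) to 1.48 to 1.85 and 1.81 to 2.66. The cholangiocyte sums overlapped slightly, with higher values in TCEP, and single markers did not overlap. Spp1, osteopontin, was higher by 1.04 ± 0.35 (SE; limma, unadjusted p = 0.0238, adjusted p = 0.512), and Epcam, an epithelial adhesion protein, by 0.52 ± 0.16 (limma, unadjusted p = 0.0155, adjusted p = 0.493). Cldn4, a claudin of tight junctions, had -0.30 ± 0.12 (limma, unadjusted p = 0.0449, adjusted p = 0.534), though its other kept probe gave 1.05. Thus 3 of 5 measured markers were at an unadjusted p under 0.05, beside 9.23% of all genes, in differing directions. That count depended on the probe chosen: with the mean over probes 2 were higher and 0 lower, and 4 of 5 had a higher mean. The remaining markers, Krt19 and Krt7, had 0.50 ± 0.24 and -0.27 ± 0.18 with overlapping groups. Neutrophil (5 of 6), erythroid (5 of 6), stellate (8 of 8) and endothelial (5 of 6) sums overlapped between the groups, at 1.03 to 5.91 and 1.72 to 3.2, 1.97 to 3.52 and 2.07 to 3.9, 34.9 to 38.1 and 33 to 35.2, and 40.6 to 49.5 and 43 to 47. Cd3e and Cd5 of T cells and Mmp8 of neutrophils were not well above background on any array. The part of these cell types in the cell cycle values was not tested.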

How the data were processed

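Liver RNA was labelled with Cy3 and hybridised to 1-colour Agilent arrays, per the labels' protocols. The authors used Agilent Feature Extraction 10.7.1.1 to obtain spot intensity values, per the file headers. Matched against the scanner values, the deposited ratio table is the processed signal divided by that array's 75th percentile. Deposited flags of 0 or 1 mark signals well above background.

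Processed signals were scaled on the 75th percentile of the 61657 non-control probes, array by array, and put on the log2 scale. Outlier-flagged spots (64) were set to missing. Symbols came from RefSeq (GRCr8, 27460 probes matched). The groups were compared on 27642 genes, two-sided and without covariates, with limma 3.58.1 (lmFit, eBayes; R 4.3.3). Alternatives changed normalization, background, filter, probe choice, moderation and blocks, or left out 1 array. The fit was tested on simulated data. The array design names an older build, so coordinates are given only for RefSeq promoters. Labels speak of 3 animals per group.

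The members, phase classes and lists were chosen with earlier results of these data known. Genes with values in every animal are all G1 members, the 5 brightest S phase and mitotic members, Cdk1, Pcna and members at an unadjusted p under 0.05. From other lists up to 3 genes at an unadjusted p under 0.05, or the brightest, were named. Further members, named for their role or spread, and the cholangiocyte markers named were chosen after their values were seen.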

Additional observations from a re-analysis of the deposited data

How the results depend on the processing

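In all 16 alternatives, 0 genes and 0 members passed the adjusted threshold (limma). Genes at an unadjusted p under 0.05 numbered 2552, and 1610 to 3221 with 1 array left out (1610 without TCEP replicate 3). Members higher at an unadjusted p under 0.05 numbered 1, and 2 with quantile normalization, with median centring and with no filter on dim probes. They numbered 0 with normexp (offset 50) and 0 when all 6 arrays had to be above background, and 1 to 9 with 1 array left out (9 without corn oil replicate 2, 3 without corn oil replicate 1 or TCEP replicate 2, 2 without corn oil replicate 3). Members lower numbered 0, and 0 to 2 with 1 array left out (2 without corn oil replicate 1, 1 without TCEP replicate 1). With a replicate block, 1 member was lower, Mcm6, and 1896 genes were at an unadjusted p under 0.05. Samples with the same replicate number did not deviate together (correlations of -0.05, -0.17 and -0.02 for numbers 1 to 3), so the numbers were not taken as pairs. The share of genes with a higher TCEP mean was 51.1%, 62% with median centring and 40.1% with no filter on dim probes. Of the 42 members, 20 kept the sign of their difference in every alternative that measured them and 22 did not; for 21 of these 22 leaving out 1 array changed it. The cause of these changes was not tested. Probes near background limit the dim members, such as Ccne2, Ccnb2, Mcm6 and Prc1.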
